A study of Homo sapiens with 6 samples.

Results

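The genes that carry a cell from G1 into S phase were read in AGS cells, an established human gastric adenocarcinoma line, 48 h after siRNA transfection. The members were 10 genes: the D cyclins CCND1, CCND2 and CCND3, the E cyclins CCNE1 and CCNE2, the kinases CDK2, CDK4 and CDK6, and the RB family genes RB1 and RBL2. They were chosen as a pathway, and they are 10 of the 22438 genes that could be named on the array through RefSeq accessions. Together they have 11 probes, since CCNE2 has 2. The treated cells received si-C1GALT1-3, a single siRNA against C1GALT1, the enzyme that adds galactose to the first sugar of mucin-type O-glycans. The comparison cells received a nontargeting siRNA (si-control), so both groups were transfected, and both were grown in medium with 10% FBS. Each group had 3 samples, each on its own one-colour Agilent array. Because 1 siRNA was used, the response to this siRNA and the response to lower C1GALT1 cannot be told apart. The labels do not say that the samples came from separate cultures, so p-values measure only the spread between these samples, which may be technical.

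In G1, growth signals raise the D cyclins, which bind and activate CDK4 and CDK6. These kinases, and then CDK2 with an E cyclin, phosphorylate RB1 and its relatives RBL1 (p107) and RBL2 (p130), which frees E2F transcription factors to switch on the genes of DNA replication. Cyclin D1 is often overexpressed and cyclin E1 often amplified in gastric and other carcinomas.

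Values are log2 of the background-corrected fluorescence of a probe, brought to a common distribution over the 6 arrays (quantile normalization), and differences are si-C1GALT1-3 minus si-control on that scale. A gene was called changed at p under 0.01 in limma and at least 2-fold, the thresholds the study used. The Benjamini-Hochberg adjustment covered the 58195 probes tested. A gene with several probes was read from its brightest. One si-control array, replicate 2, had a rectangular patch of very low signal that covered 9712 of the 60901 gene spots, and these spots were left out on that array. Arrays of the same replicate number shared a slide, with the si-control array always in the same position, so position and treatment cannot be told apart. Between 66.2% and 72.7% of gene spots were well above background on each array and 0 were saturated, and precision is limited by how few arrays there are.

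C1GALT1 itself had log2 signals of 12.22, 13.03 and 12.62 in si-control and 11.76, 11.98 and 11.13 in si-C1GALT1-3. The groups did not overlap, and the target was lower in treated cells on each slide, with a difference of -1.0 (SE 0.31, 95% interval -1.77 to -0.23). It reached 2-fold but missed the call on its p-value (adjusted p = 0.265 in limma). All 6 epithelial markers examined (EPCAM, KRT8, KRT18, KRT19, CLDN4 and ELF3) were well above background on every array where they had a value, and their summed signal ranged from 444259 to 676584 in si-control and from 376042 to 629665 in si-C1GALT1-3. Of these 6, 1 was called, ELF3, an epithelial transcription factor that was higher in treated cells on 2 control values, a call lost with the slide as a replicate block (adjusted p = 0.225 in limma). Among 6 markers of other cell types, 4 were well above background on every array with a value (PTPRC, CD3E, CDH5 and COL1A1), while DCN of fibroblasts was so on 0 of 3 si-control arrays and 1 of 3 si-C1GALT1-3 arrays. None of these 6 was called, and their summed signal ranged from 14132 to 22624 in si-control and from 13679 to 14939 in si-C1GALT1-3. This sum is mostly the PTPRC probe read, at 13.56 to 14.34 on the log2 scale, with COL1A1 next at 9.97 to 10.51. The sum therefore says little about other cell types as a group. In si-control the remaining PTPRC probes had log2 signals of 13.64 to 13.99, 6.09 to 6.81, 3.11 to 3.20 and 3.08 to 3.09. The PTPRC probes also did not act alike, since 2 of the 5, both other than the one read, were called higher. The part of these markers in the results was not tested.

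Cyclin D1 mRNA was lower and CDK6 mRNA higher after C1GALT1 knockdown, each about 3-fold, and these were the 2 members called. That is 1 member higher, where 2.08% of all genes were called higher, and 1 lower, where 1.33% of all genes were called lower (3.41% of all genes in either direction). The other 8 members were not called. CCND2 did not rise well above background on any of the arrays, which left 9 measured members, all with values on the 6 arrays. The groups did not overlap for 4 of these 9, with CCND1 lower and CDK6, CCNE2 and RB1 higher, against 23.3% of all genes with 6 values. The same 4 members had an unadjusted p under 0.05, against 16.6% of all genes. With the slide as a replicate block CCNE2 was no longer under 0.05 (unadjusted p = 0.0604 in limma). After adjustment 0 members were under 0.05 in limma, against 0.138% of all genes, and the members' adjusted p-values ranged from 0.0688 to 0.968. In these bulk samples fewer cells in a phase of the cycle and less RNA per cell cannot be told apart.

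**Figure D1:**
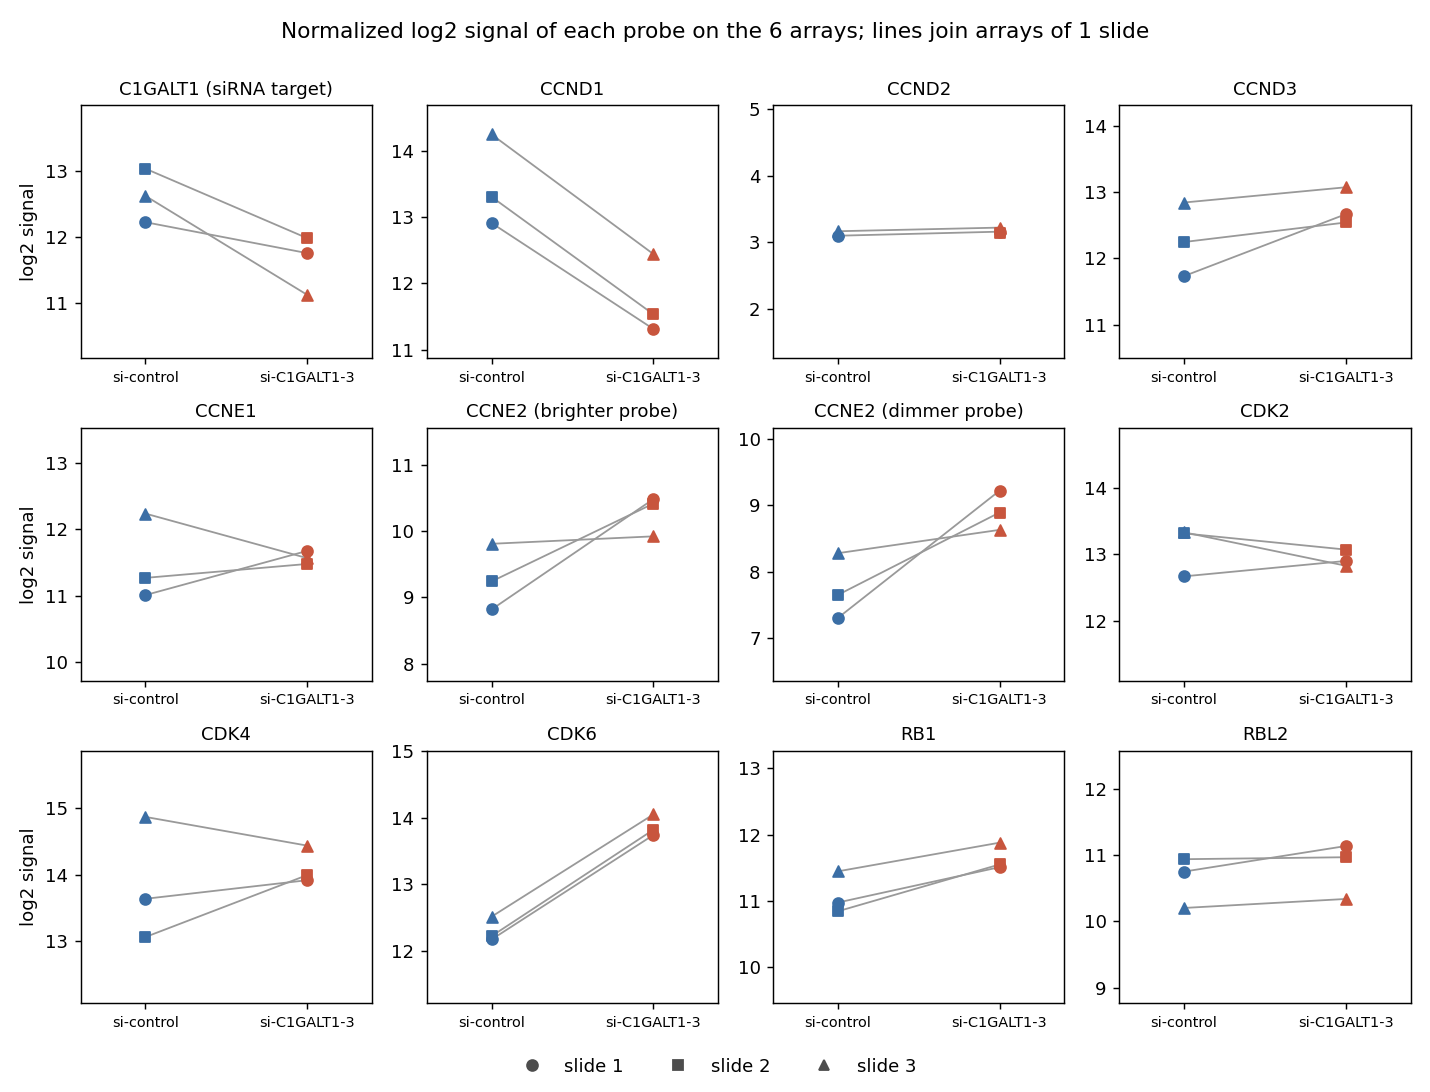
Normalized log2 signal (vertical axes, each spanning the same range) of C1GALT1 and of each member probe in si-control (blue) and si-C1GALT1-3 (red), with 1 marker shape per slide and a line joining the 2 arrays of a slide. The CCND1 and CDK6 lines are steep and nearly parallel, from 12.91-14.24 down to 11.31-12.44 and from 12.17-12.51 up to 13.74-14.05, while CCND2 lies near 3.1 to 3.2 and was not above background.

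CCND1, which encodes cyclin D1, the D cyclin most responsive to growth signals, had log2 signals of 12.91, 13.30 and 14.24 in si-control and 11.31, 11.54 and 12.44 in si-C1GALT1-3. Every treated array was below every control array. The group means were 13.48 ± 0.69 and 11.76 ± 0.60 (SD, n = 3 arrays each), a fall of 3.30-fold, with a difference of -1.72 (SE 0.45, 95% interval -2.84 to -0.60, adjusted p = 0.213 in limma). Levels differed between slides in both groups, and replicate 3 was the highest in each. Within slides the difference hardly varied, at -1.59, -1.77 and -1.80, with an SD of 0.11. With the slide as a replicate block the SE was 0.12 (adjusted p = 0.180 in limma).

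The call of CCND1 lay close to the threshold. It was kept in 11 of 18 alternative analyses and lost in 7, always on the p-value, and the difference stayed between -2.05 and -1.33. Among the arrays left out in turn, it was lost without si-control replicate 2 (-1.81), without si-control replicate 3 (-1.33), without si-C1GALT1-3 replicate 1 (-1.50) and without si-C1GALT1-3 replicate 2 (-1.62).

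CCND3, a broadly expressed D cyclin, gave 11.73, 12.25 and 12.84 in si-control and 12.67, 12.54 and 13.07 in si-C1GALT1-3. The groups overlapped, and although treated cells were higher on each slide (0.93, 0.29 and 0.23), the difference of 0.49 (SE 0.32) had a 95% interval from -0.31 to 1.28 that includes both no change and a rise of more than 2-fold (adjusted p = 0.567 in limma). CCND2 had a single spot, which lay in the patch on si-control replicate 2. Its signals, 3.10 and 3.17 in the remaining si-control arrays and 3.16, 3.14 and 3.22 in si-C1GALT1-3, were not well above background, and no difference is given.

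CDK6, a kinase partner of the D cyclins, had the smallest p-value among the members and stood at rank 50 of the 22438 genes by p. Its log2 signals were 12.17, 12.22 and 12.51 in si-control and 13.74, 13.82 and 14.05 in si-C1GALT1-3. The lowest treated array was more than 1 log2 unit above the highest control array. The means were 12.30 ± 0.19 and 13.87 ± 0.16 (SD, n = 3 arrays each), a rise of 2.97-fold, with a difference of 1.57 (SE 0.16, 95% interval 1.16 to 1.98, adjusted p = 0.0688 in limma). The 3 slides gave 1.57, 1.60 and 1.54. CDK6 was called in all 18 alternative analyses, with differences from 1.48 to 1.67.

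CDK4, the other kinase of the D cyclins, gave 13.64, 13.06 and 14.87 in si-control and 13.92, 13.996 and 14.44 in si-C1GALT1-3. The 3 treated arrays lay inside the range of the control arrays. The difference was 0.26 (SE 0.48, 95% interval -0.93 to 1.45, adjusted p = 0.877 in limma), and the slides disagreed in direction, at 0.28, 0.93 and -0.43. Its only spot lay 4 columns from the edge of the low-signal patch, and si-control replicate 2 gave its lowest value. With the patch widened so that this value was left out, the difference was -0.14.

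CDK2, the kinase of the E cyclins, gave 12.67, 13.31 and 13.33 in si-control and 12.90, 13.07 and 12.83 in si-C1GALT1-3. Treated cells were within the control range on all 3 arrays, and the difference was -0.17 (SE 0.22, 95% interval -0.73 to 0.38, adjusted p = 0.799 in limma). The interval leaves out a 2-fold change in either direction.

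Because CDK4 and CDK6 bind the same cyclins but differed here in what was called, the 250 bases before their gene starts are shown, from RefSeq (GRCh38.p14), each 5′ to 3′ on the minus strand that carries the gene. CDK6 is at chr7:92836574-92836823 and CDK4 at chr12:57752311-57752560, both upstream of the annotated start. Capitals mark GC boxes (GGGCGG or, on the other strand, CCGCCC), the word bound by SP1, and E boxes (CACGTG, which reads the same on both strands), the word bound by MYC and its relatives.
CDK6: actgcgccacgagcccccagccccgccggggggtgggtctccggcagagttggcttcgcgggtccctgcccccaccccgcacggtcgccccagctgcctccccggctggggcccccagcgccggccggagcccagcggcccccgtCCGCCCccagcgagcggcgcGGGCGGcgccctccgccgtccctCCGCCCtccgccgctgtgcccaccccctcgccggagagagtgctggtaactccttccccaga
CDK4: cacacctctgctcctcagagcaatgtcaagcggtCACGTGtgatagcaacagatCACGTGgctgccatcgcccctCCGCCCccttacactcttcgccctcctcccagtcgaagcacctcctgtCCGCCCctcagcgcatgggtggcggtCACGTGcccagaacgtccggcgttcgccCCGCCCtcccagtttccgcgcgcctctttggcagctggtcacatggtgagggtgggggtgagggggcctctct

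Both windows hold 3 GC boxes, and CDK4 holds 3 E boxes where CDK6 holds 0. A GC box occurs in 42.6% of the 35116 promoter windows of this length and an E box in 6.34%. Entries were found for 6 of the 10 members (CCND3, CCNE1, CDK4, CDK6, RB1 and RBL2). Of these, 4 held a GC box and 1 an E box. The E2F words TTTCGCGC, TTTGGCGC, TTTCCCGC and TTTGCCGC, searched on both strands, were in 0 of the 6 windows and in 2.79% of all windows, which says only that these letters are not in the windows searched.

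CCNE2, which encodes cyclin E2, was higher in treated cells by both of its probes, and the probes fell on either side of the call. The brighter probe gave 8.82, 9.24 and 9.81 in si-control and 10.48, 10.41 and 9.92 in si-C1GALT1-3. Its groups did not overlap, but the highest control and the lowest treated array, both of replicate 3, were close together. The difference was 0.98 (SE 0.30, 95% interval 0.23 to 1.73, adjusted p = 0.264 in limma) and was not called. The slides gave 1.66, 1.17 and 0.11, an unequal set whose smallest member is slide 3. The call was made without si-control replicate 3, with a difference of 1.23.

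The dimmer CCNE2 probe gave 7.31, 7.65 and 8.28 in si-control and 9.22, 8.89 and 8.63 in si-C1GALT1-3. Again no treated array reached down to a control array. Its difference of 1.17 (SE 0.30, adjusted p = 0.206 in limma) passed the call. The slides gave 1.92, 1.24 and 0.35, and with the slide as a replicate block the call was lost (adjusted p = 0.266 in limma). It was also lost with the patch kept in (0.98), with normexp background correction (0.89), with the methods' t-test, without si-control replicate 1 (0.95) or 2 (1.13), and without any 1 of the si-C1GALT1-3 arrays (1.02, 1.18 and 1.31 without replicates 1, 2 and 3).

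CCNE1, which encodes cyclin E1, gave 11.01, 11.27 and 12.24 in si-control and 11.67, 11.48 and 11.57 in si-C1GALT1-3. All treated arrays lay within the control range, and the treated arrays were less spread (SD 0.098 against 0.65, n = 3 each). The difference was 0.068 (SE 0.34, 95% interval -0.76 to 0.90, adjusted p = 0.968 in limma). The slides gave 0.67, 0.21 and -0.67, so slide 3 was again the lowest of the 3. It gave the lowest difference for 8 of the 9 measured members, the exception being RBL2, while the median over all genes was 0.048, 0.024 and 0.00080 on slides 1, 2 and 3.

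**Figure D2:**
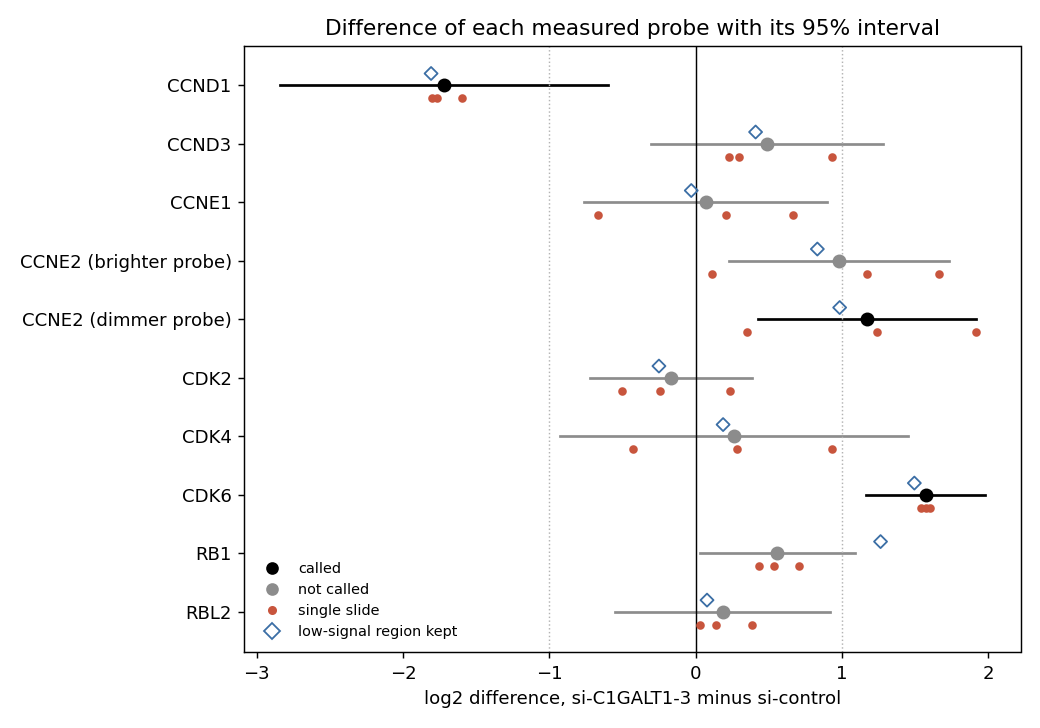
Difference in log2 signal, si-C1GALT1-3 minus si-control, for the 10 probes of the 9 measured members, with the 95% interval from limma (black where called, grey where not), the 3 single-slide differences (red) and the difference with the low-signal patch kept in (blue diamonds). Dotted lines mark 2-fold. The slides of CCND1 and CDK6 cluster at -1.80 to -1.59 and 1.54 to 1.60, and RB1 is the gene whose diamond, at 1.26, lies outside its interval.

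RB1, the retinoblastoma protein that D cyclin kinases inactivate, gave 10.98, 10.85 and 11.45 in si-control and 11.51, 11.55 and 11.88 in si-C1GALT1-3. The groups did not overlap, by a small margin, and treated cells were higher on each slide (0.53, 0.71 and 0.43). The difference was 0.56 (SE 0.21, 95% interval 0.026 to 1.09, adjusted p = 0.342 in limma), short of the call in p and in size. RB1 was not called with the slide as a replicate block either (adjusted p = 0.215 in limma).

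RB1 and CCND1 are each printed as 10 spots across the array, which shows the low-signal patch directly. On si-control replicate 2, the 4 RB1 spots inside the patch had log2 signals before normalization from 3.11 to 6.24, with a mean of 4.61, while the 6 spots outside had a mean of 10.75 (SD 0.10). That is 6.14 log2 units lower inside the patch. On the other 5 arrays the spots at the same places differed from the rest by only 0.024 to 0.095. For CCND1 the 1 spot inside read 4.73 against a mean of 13.19 over the 9 spots outside, and on the other 5 arrays the same spot differed by -0.019 to 0.038. Outside the patch, spots of a probe agreed within an SD of 0.062 to 0.129 for CCND1 and 0.036 to 0.104 for RB1 on each array.

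Among the measured members, keeping the patch in changed RB1 most. Its si-control replicate 2 value became 8.69, the difference became 1.26 with an SE of 0.73, and RB1 was again not called. For CCND1, whose spot in the patch was also marked as an outlier by the scanner software and left out on that ground, the difference was -1.81 and the call held.

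**Figure D3:**
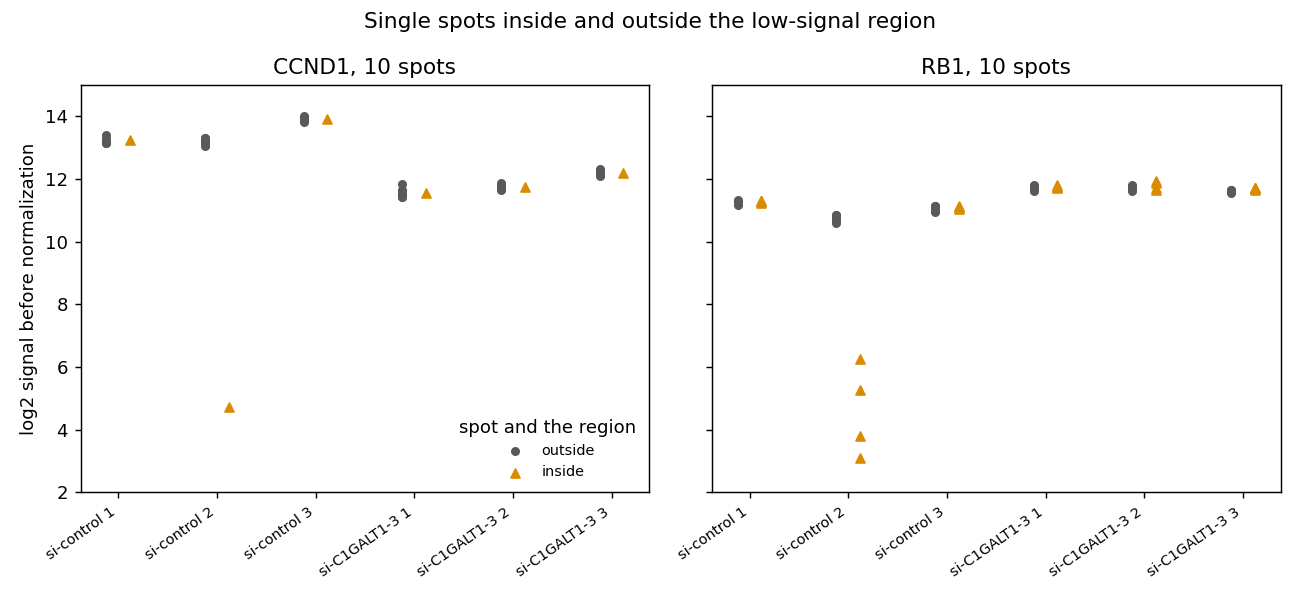
Log2 signal before normalization (vertical axis) of each of the 10 spots of CCND1 (left) and RB1 (right) on the 6 arrays, with spots at places inside the low-signal patch as orange triangles and the others as grey dots. The triangles drop away on si-control replicate 2, to 4.73 for CCND1 and to 3.11-6.24 for RB1, and sit with the other spots on the 5 remaining arrays.

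RBL2, which encodes p130, the RB relative that binds E2F in resting cells, gave 10.75, 10.94 and 10.20 in si-control and 11.14, 10.97 and 10.34 in si-C1GALT1-3. The groups overlapped, and replicate 3 was the lowest in both. The difference was 0.18 (SE 0.30, 95% interval -0.55 to 0.92, adjusted p = 0.852 in limma), and the slides gave 0.38, 0.030 and 0.14.

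Like members were then compared on the same array, since a difference within an array does not depend on the scaling between arrays. The probes of a pair have different efficiencies, so only the shift of the difference between the groups can be read. With 3 arrays against 3, the exact two-sided permutation test cannot go below p = 0.10. Over the 4 pairs compared, an exact p of 0.1 becomes 0.133 after Benjamini-Hochberg adjustment and an exact p of 0.5 stays 0.5. Between CCND1 and CCND3 the difference was 1.20, 1.07 and 1.402 in si-control and -1.31, -0.96 and -0.64 in si-C1GALT1-3, a shift of -2.20 (exact permutation p = 0.1). The groups were wholly apart, so cyclin D1 relative to cyclin D3 was lower on every treated array than on any control array.

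CDK6 minus CDK4 was -1.55, -0.86 and -2.33 in si-control and -0.19, -0.17 and -0.39 in si-C1GALT1-3, a shift of 1.33 (exact permutation p = 0.1). The 3 control arrays varied more among themselves than the treated arrays. Without si-control replicate 3 the shift was 0.95, and with the patch widened it was 1.69. CCNE2 minus CCNE1 was -2.12, -1.98 and -2.55 in si-control and -1.18, -1.03 and -1.70 in si-C1GALT1-3, a shift of 0.91 (exact permutation p = 0.1). RBL2 minus RB1 was -0.22, 0.091 and -1.31 against -0.36, -0.57 and -1.58, and these overlapped, with a shift of -0.36 (exact permutation p = 0.5). Replicate 3 was the lowest in both groups, and a shift of 0.017 was found without si-C1GALT1-3 replicate 3, which leaves its slide with the si-control array alone. Within slides, which this test does not use, the shifts of RBL2 minus RB1 were -0.14, -0.66 and -0.27, and those of the other pairs also kept 1 sign: 1.36, 0.69 and 1.93 for CDK6 minus CDK4, -2.51, -2.03 and -2.04 for CCND1 minus CCND3, and 0.94, 0.95 and 0.85 for CCNE2 minus CCNE1.

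**Figure D4:**
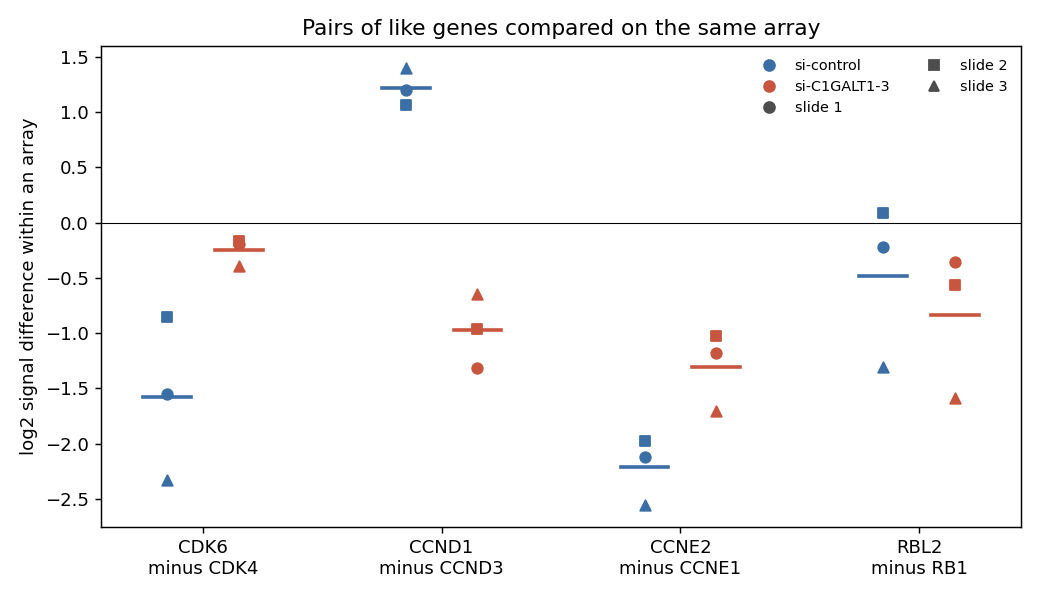
Log2 signal of 1 gene minus that of another on the same array (vertical axis), before normalization, for 4 pairs of like members in si-control (blue) and si-C1GALT1-3 (red), with bars at the group means and marker shapes for slides. The groups are apart for CDK6 minus CDK4, CCND1 minus CCND3 and CCNE2 minus CCNE1, with shifts of 1.33, -2.20 and 0.91, and overlap for RBL2 minus RB1.

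The genes that act with the members were read from 7 lists. Beside them, the median difference of all genes was 0.019 and that of the 9 measured members 0.26, which was 0.21 to 0.73 when each array was left out, the 0.73 without si-control replicate 3. Of all 22438 genes, 10677 had a fitted difference below 0, 16.6% had an unadjusted p under 0.05, 1.33% were called lower and 2.08% higher. Downstream of the RB family, the 22 E2F targets of G1/S, which make and license DNA replication, all had fitted differences below 0, with a median of -0.69, and 10 had an unadjusted p under 0.05. The slides were unequal: 12 of the 22 were below 0 on slide 1 (median -0.14), 18 of the 18 with a value on slide 2 (median -0.63) and 22 of 22 on slide 3 (median -1.31). Of these 22, 3 were called lower and 0 higher. DTL, a substrate adaptor of an S-phase ubiquitin ligase, had a difference of -1.19 (SE 0.27, adjusted p = 0.175 in limma). CDC45, a part of the replicative helicase, had -1.12 (SE 0.27, adjusted p = 0.186), and MCM5, another part of it, had -1.05 (SE 0.18, adjusted p = 0.141) with only 2 control values. The second MCM5 probe, with 3 control values, had -0.74 (adjusted p = 0.321) and was not called. The smallest fitted fall was that of SLBP, the histone mRNA binding protein, at -0.13. Over the alternatives between 0 and 5 were called. None was called without normalization, with the replicate block, or when si-control replicate 3 or either of si-C1GALT1-3 replicates 2 and 3 was left out, 1 was called without si-control replicate 2, and 5 were called without si-control replicate 1. Without si-control replicate 3, 19 of the 22 remained below 0 and the median was -0.41, and with the patch kept in 19 did as well.

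Later in the cycle, all 5 cyclins and kinases of S, G2 and M had fitted differences below 0, with a median of -1.14, and 2 were called lower. Of these 5, 4 had an unadjusted p under 0.05 in limma, against 16.6% of all genes. All with a value were below 0 on each slide, with medians of -0.64 (5 genes), -1.13 (3 genes) and -1.71 (5 genes) on slides 1, 2 and 3. With the patch kept in, 4 of the 5 were below 0. CDK1, the mitotic kinase, gave 13.19, 13.64 and 13.58 in si-control against 12.55, 12.40 and 11.68 in si-C1GALT1-3 (-1.26, SE 0.28, adjusted p = 0.164 in limma). CCNA2, cyclin A2 of S phase and G2, gave 12.16, 12.42 and 12.72 against 11.51, 11.30 and 11.01 (-1.16, SE 0.21, adjusted p = 0.131). In both genes every treated array was below every control array. A second CDK1 probe had -1.61 (SE 0.62, adjusted p = 0.343) and was not called. CCNB1, cyclin B1, was read from a probe with 2 control values and was not called, at -1.12 (SE 0.29, adjusted p = 0.233), while its other probe, with all 6 values, was called at -1.04 (SE 0.18, adjusted p = 0.116). CCNF had the smallest fitted fall, -0.58. With the replicate block 0 of the 5 were called on the probes read, though the other CCNB1 probe kept its call, and over the alternatives 0 to 4 were. The count was 1 when any 1 of si-control replicates 2 and 3 or si-C1GALT1-3 replicates 2 and 3 was left out.

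**Figure D5:**
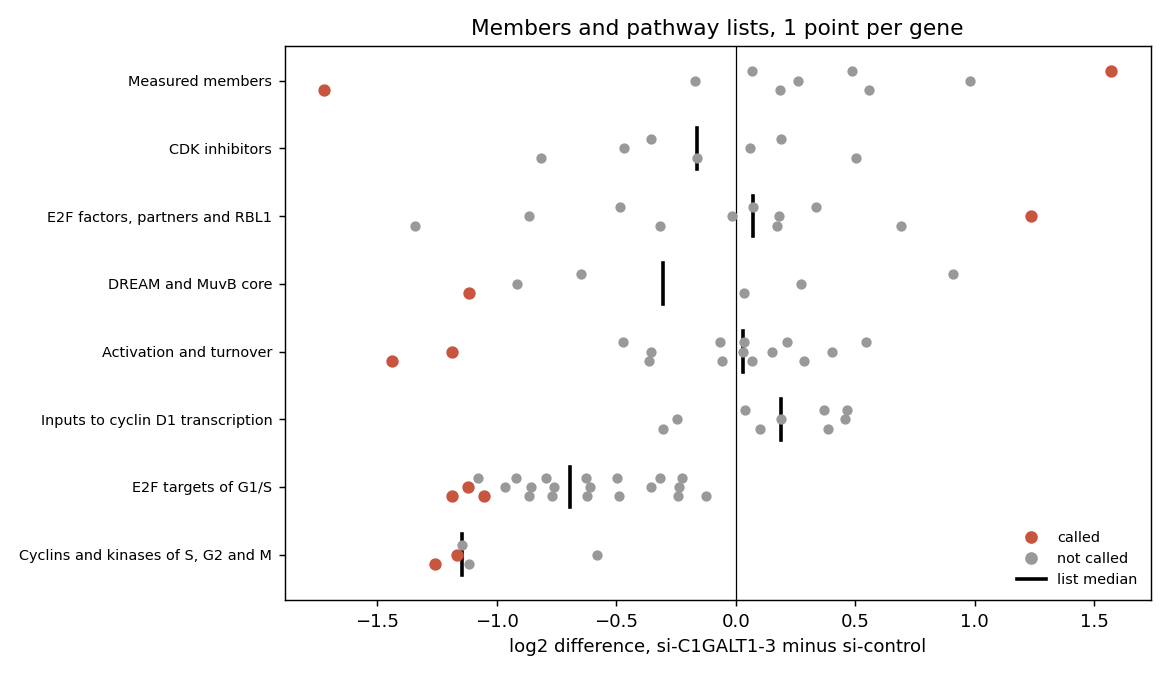
Fitted log2 difference of each gene (horizontal axis, 1 point per gene, red where called) for the 9 measured members and the 7 pathway lists, with black bars at the list medians. The E2F targets and the cyclins and kinases of S, G2 and M lie wholly left of 0, with medians of -0.69 and -1.14, although on slide 1 alone 10 of the 22 E2F targets were above 0, while the members spread to both sides.

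Among the E2F factors, their partners and RBL1, 1 of 11 was called, and the list median was 0.072, which was -0.20 without si-control replicate 1 and 0.24 without si-control replicate 3. Of these 11, 4 had an unadjusted p under 0.05 in limma, in both directions, against 16.6% of all genes. E2F5, a partner of RBL2, was called higher at 1.23 (SE 0.19, adjusted p = 0.124 in limma) on 2 control values, 9.06 and 9.41, against 10.40, 10.41 and 10.60. Without si-C1GALT1-3 replicate 2, 1 gene of the list was called lower. E2F2 had the lowest fitted value, -1.34 (SE 0.51, adjusted p = 0.335 in limma), and was not called. RBL1, the RB family gene outside the 10 members, had -0.87 (SE 0.22, adjusted p = 0.206 in limma), past the p threshold but short of 2-fold, with 9.18, 9.40 and 9.45 in si-control against 8.52, 8.82 and 8.09. The 3 genes of the RB family therefore had fitted differences of 0.56, 0.18 and -0.87, none of them called.

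The DREAM and MuvB core is the complex that joins RBL1 or RBL2 to repress cell cycle genes and MYBL2 to activate them. The list of 6 counts its partner MYBL2 with it. Of these 6, 1 was called and 4 had an unadjusted p under 0.05 in limma, against 16.6% of all genes. LIN9 was lower at -1.11 (SE 0.19, adjusted p = 0.118 in limma), with 10.99, 11.15 and 11.15 against 10.08, 10.22 and 9.64. Its second probe had -0.74 and was not called. The number of genes called lower in the list was 0 without normalization, with genes read as the median of their probes and without si-C1GALT1-3 replicate 3, and 2 without si-control replicate 1. LIN52 had the highest fitted value, 0.91, and was not called. It had 2 control values, and only 1 of them was well above background. The list median was -0.31, and 0.062 with the patch kept in.

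Of 15 genes that activate or turn over the G1 cyclins and kinases, 2 were called lower and 0 higher, and the median was 0.030, which was -0.14 to 0.13 when each array was left out. Of these 15, 3 had an unadjusted p under 0.05 in limma, against 16.6% of all genes. SKP2, which targets the inhibitor p27 for destruction, gave 9.78, 10.51 and 10.81 against 8.81, 9.30 and 8.68 (-1.44, SE 0.32, adjusted p = 0.166 in limma), and CKS1B, its cofactor, had -1.19 (SE 0.22, adjusted p = 0.154) on 2 control values. The second CKS1B probe, with all 6 values, was called at -1.33 (SE 0.19, adjusted p = 0.0940) and kept its call with the replicate block. On the probes read, both calls were lost with the block, without si-control replicate 3 the count was 0, and leaving out any 1 of the other arrays gave a count of 1. The count was also 0 with the methods' t-test, and 1 without normalization and with the series table. AMBRA1, which directs the D cyclins to degradation, had the highest fitted value, 0.55, and was not called.

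None of the 7 CDK inhibitors was called in the main analysis or in any of the 18 alternatives, and 0 had an unadjusted p under 0.05 in limma. Their median was -0.16, with fitted values from -0.81 for CDKN2C, which was well above background on 2 of 3 arrays in each group, to 0.50 for CDKN1A, which encodes p21. The median was -0.36 with the replicate block, -0.074 without si-control replicate 1 and -0.46 without si-control replicate 3, where 6 of the 7 were below 0. None of the 9 inputs to cyclin D1 transcription was called in the main analysis or the alternatives either. In the main analysis 0 had an unadjusted p under 0.05 in limma on the probes read. Their median was 0.19, from -0.30 for FOSL1, an AP-1 subunit, to 0.47 for JUN, another. The JUN value rested on 2 control values and was 0.14 with the replicate block, while ETS2 had 0.46 with all 6 values. With the replicate block the inputs under 0.05 were ETS2, MYC and CTNNB1, all higher (unadjusted p = 0.0243, 0.0323 and 0.0462 in limma). The TCF7L2 probe read had 0.19, and its others had 0.44 (unadjusted p = 0.0416 in limma) and 0.18. On slides 1, 2 and 3, 4 of 9, 5 of 8 and 9 of 9 inputs with a value were above 0. The list median was 0.055 to 0.38 when each array was left out, lowest without si-control replicate 3 and highest without si-control replicate 2. Across the 7 lists 0 genes had an adjusted p under 0.05 in limma.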

How the data were processed

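Total RNA of 6 AGS samples was hybridized to one-colour Agilent arrays. The authors deposited scanner files of Agilent Feature Extraction 10.5.1.1, whose processed signal is a fluorescence intensity corrected for background and not normalized between arrays, and a table of background-subtracted intensity of the same spots. Flags of spots were deposited beside them. From the intensity, log2 values were taken, and spots marked as outliers and, on si-control replicate 2, those in rows 113 to 288 and columns 59 to 115 were set to missing. Arrays were quantile normalized, spots of a probe averaged, and groups compared with limma 3.58.1 (lmFit, eBayes) in R 4.3.3. A lone missing value was dropped from its fit. Probes were named by RefSeq accession, and the files' build differs from that of the RefSeq table, so no probe positions are given.

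The genes named are all 10 members, C1GALT1, and of each list the called genes up to 5 and the largest rise and fall. RBL1, CCNB1, ETS2, MYC, CTNNB1, TCF7L2, other probes of a gene, and the smallest falls in lists where no gene rose, were named after their values were seen. The members and lists were chosen with earlier results of these data known. Replicate numbers pair the arrays through the slide: deviations from the group means correlated at 0.198, 0.215 and 0.329 for replicates 1, 2 and 3. The alternatives were the patch kept in or widened by 10 spots, scaling to the 75th percentile or none, normexp (offset 50) on the median signal, dim probes left out, outlier spots kept, the replicate block, a trend and robust prior, the methods' t-test (with equal variances, named there for comparing experimental groups, where limma is named for the arrays), the series table (floor 10), the median over a gene's probes, and each array left out.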

Additional observations from a re-analysis of the deposited data

How the results depend on the processing

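CDK6 was called in all 18 alternatives run and CCND1 was lower in all 18. The number of members called lower became 0 with the low-signal patch widened (CCND1 at -1.71), with the methods' t-test and with the series table, and was 0 to 1 when each array was left out. The number called higher was 1 to 2 when each array was left out. With normexp, with dim probes left out, and with genes read as the median of their probes, 1 member, CDK6, had an adjusted p under 0.05 in limma. C1GALT1 passed the call with dim probes left out (-1.0). All genes called higher numbered 466 in the main analysis, 230 with the patch kept in, 281 with the methods' t-test and 306 to 520 when each array was left out. All genes called lower numbered 299, against 129 without normalization and 167 with the methods' t-test. By that test 448 genes in all passed the call and 2 had a Benjamini-Hochberg adjusted p under 0.05. RBL2 minus RB1 was -1.18 with the patch kept in.

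Among members that were not called, the sign turned for CCNE1 (-0.031 with the patch kept in, and -0.18 to 0.43 when each array was left out), CDK4 (-0.14 with the patch widened, and -0.14 to 0.77 when each array was left out) and RBL2 (-0.028 to 0.42 when each array was left out). The cause of these changes was not tested, apart from CDK4 with the patch widened, where its own si-control replicate 2 value was left out. CCNE1 had 0 spots in the patch. Its normalized si-control replicate 2 value was 11.27 with the patch left out and 11.52 with it kept in. The paired fit with the replicate block kept both member calls, with CCND1 at -1.72 and CDK6 at 1.57, and lost the call of the dimmer CCNE2 probe. The differences within arrays on quantile-normalized values, an alternative chosen after seeing the data, were 1.31, -2.21, 0.91 and -0.37 in the order CDK6 minus CDK4, CCND1 minus CCND3, CCNE2 minus CCNE1 and RBL2 minus RB1.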
